A study of Homo sapiens with 6 samples.

Results

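The E2F, MYBL2, FOXM1 and RB regulators are 10 genes that set when cell-cycle genes are transcribed, and they were read by symbol from a table of 63009 genes. They are E2F1, E2F2, E2F3, E2F7, E2F8, MYBL2, FOXM1, RB1, RBL1 and RBL2, and all 10 were found. RBL1 was listed under 2 identifiers, and the one with the higher mean was used. The cells were ERRAS cells, which are IMR90 primary human lung fibroblasts that carry, after retroviral transduction, oncogenic H-RasV12 fused to an estrogen receptor domain, so that Ras signaling starts when tamoxifen is added. Control mitotic cells (3 libraries) carried the same construct without induction, and Ras-induced mitotic cells (3 libraries) had been induced for 4 days, with 100 nM tamoxifen according to the sample labels. The study's methods name 4-hydroxytamoxifen and state its dose by mass, which does not match the labels, so the exact dose is uncertain. Both groups were arrested in mitosis with 1 µM Dimethylenastron (DME), an inhibitor of the kinesin Eg5, and the detached cells were collected. The measurement is therefore of poly(A) RNA in a fraction enriched for arrested mitotic cells. The study scored the cells by microscopy and reports a large majority in mitosis in both groups. A minority of cells of other phases may remain.

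The RB family consists of the pocket proteins RB1, RBL1 (p107) and RBL2 (p130), which bind E2F transcription factors and hold their target genes silent until cyclin-dependent kinases phosphorylate the pocket proteins. E2F1, E2F2 and E2F3 activate genes for DNA replication, whereas E2F7 and E2F8 lack the pocket-binding region and repress many of the same genes. MYBL2 (B-MYB) joins the MuvB core complex to switch on genes of G2 and mitosis, where FOXM1 then also acts. In cells that have stopped dividing, the same MuvB core pairs instead with RBL2 or RBL1 and with E2F4 or E2F5 in the repressive DREAM complex. Several of these regulators are themselves E2F targets.

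E2F factors bind an element near the start of their target genes, and MuvB complexes bind the CHR element. To show which of the regulators carry these letters, RefSeq promoter sequences (GRCh38.p14) were searched on both strands for the E2F element, spelled TTTCCCGC, TTTCGCGC, TTTGCCGC or TTTGGCGC, and for the CHR element, spelled TTTGAA or TTCGAA. The window held 250 bases before and 50 bases after the outer start of a gene, and 7 of the 10 regulators had one. The E2F element was found in 4 of these, E2F1, E2F2, E2F3 and RBL1, and in 3.32% of the windows of 24882 genes. The CHR element was found in E2F3 and RBL2, and in 16.9% of all windows. E2F7 and MYBL2 matched neither spelling, which says only that these letters are not in the window. The 130 bases around the start, 100 before it and 30 from it on, are given 5′ to 3′ for some of the regulators. Shown are 3 of the 4 genes with the E2F element, all 4 of which had lower FPKM means after induction (E2F3 is not shown). The others are MYBL2, which had the largest fall of the tested regulators, E2F7, which rose, and RBL2, which did not pass the test. Capitals mark the matched elements, which did not overlap each other.
E2F1 (chr20:33686356-33686485, minus strand): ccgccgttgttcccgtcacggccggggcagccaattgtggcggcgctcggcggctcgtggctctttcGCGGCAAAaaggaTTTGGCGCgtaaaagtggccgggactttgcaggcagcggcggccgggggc
E2F2 (chr1:23531204-23531333, minus strand): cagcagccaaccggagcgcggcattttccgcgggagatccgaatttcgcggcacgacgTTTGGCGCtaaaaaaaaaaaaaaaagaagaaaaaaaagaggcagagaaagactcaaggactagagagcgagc
RBL1 (chr20:37095968-37096097, minus strand): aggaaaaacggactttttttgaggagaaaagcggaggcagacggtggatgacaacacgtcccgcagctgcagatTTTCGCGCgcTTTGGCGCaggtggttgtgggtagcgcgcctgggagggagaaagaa
MYBL2 (chr20:43667014-43667143, plus strand): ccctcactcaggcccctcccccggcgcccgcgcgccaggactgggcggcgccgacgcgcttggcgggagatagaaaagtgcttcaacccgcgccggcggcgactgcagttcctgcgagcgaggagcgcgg
E2F7 (chr12:77065540-77065669, minus strand): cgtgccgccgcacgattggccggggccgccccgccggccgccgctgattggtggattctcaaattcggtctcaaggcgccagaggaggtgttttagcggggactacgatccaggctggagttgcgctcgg
RBL2 (chr16:53434371-53434500, plus strand): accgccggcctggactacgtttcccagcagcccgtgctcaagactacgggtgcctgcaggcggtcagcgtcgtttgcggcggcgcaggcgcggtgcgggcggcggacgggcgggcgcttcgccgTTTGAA
E2F1 holds 2 matches and RBL1 also holds 2, all shortly before the start, and E2F2 holds 1. The CHR letters of RBL2 lie after the start. A match is a description of the sequence and not a measured binding site.

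Levels are in FPKM, mapped fragments per kilobase of transcript scaled to the size of the library, as deposited by the authors. No read counts were used here, so the absolute depth was not assessed. The steps between low FPKM values give the depth of the libraries relative to control library 1. It was 0.951 and 1.17 in the other controls and 1.13, 0.849 and 0.972 in Ras-induced libraries 1 to 3. The cells had the fibroblast marker VIM at 1924 to 2564 FPKM in every library, and of 6 fibroblast markers COL1A2 (924 and 379 FPKM in control and Ras-induced cells) and THY1 (235 and 103 FPKM) fell, where 5.67% of all tested genes fell. COL1A1 (1345 and 550.0 FPKM, adjusted p = 0.0501, limma) and COL3A1 (253 and 114 FPKM, adjusted p = 0.0553, limma) did not pass the test, though their groups did not overlap either. PDGFRB was at 70.04 and 70.00 FPKM. With a pseudocount of 0.1, a mean of 5 FPKM or more, upper-quartile scaling or without Ras-induced library 2, 4 of the 6 were lower. In these fits 17.5%, 21.4%, 14.5% and 10.3% of all tested genes were altered. Without control library 2 or Ras-induced library 1 a single one, THY1, was lower, where 6.26% and 7.45% of all tested genes were altered. COL1A2 then had adjusted p-values of 0.0576 and 0.0518 (limma). Of 10 epithelial, endothelial and immune markers only KRT14 reached a mean of 1 FPKM over all 6 libraries, and it did not pass the test. PECAM1 and CD3E were listed at 0 throughout. The epithelial marker EPCAM, too low for the test, was at 1.05, 0.880 and 1.80 FPKM in the controls and 0.272, 0.167 and 0.424 FPKM after induction, without overlap, and its part in the results was not tested. CCNB1, the mitotic cyclin, was at 439.6 to 589.5 FPKM. HRAS measured 1164 FPKM on average in control and 1586 FPKM in Ras-induced cells (adjusted p = 0.0431, limma), and this call was lost under 10 of 13 alternatives, among them the omission of any 1 library (adjusted p from 0.0598 to 0.156) and upper-quartile scaling (0.0925). In bulk RNA, fewer cells that express a gene and less RNA per cell cannot be told apart.

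Genes averaging 1 FPKM or more, 13993 in all, were compared between Ras-induced and control mitotic cells by limma on the log2(FPKM + 1) scale. A gene is called altered where its p, adjusted by Benjamini-Hochberg, is 0.05 or less. Among the regulators MYBL2, E2F8, RBL1 and RB1 fell and E2F7 rose after Ras induction. E2F1, E2F3 and FOXM1 had lower means but did not pass the test, RBL2 was close to level, and E2F2 was below the limit of 1 FPKM. Thus 5 of the 9 tested regulators were altered, 4 of them lower and 1 higher, where 16.7% of all tested genes were altered, 5.67% lower and 11% higher. The median log2 fold change of the 9 genes was -0.50, and that of all tested genes was 0.10. The 3 Ras-induced values did not overlap the 3 control values in 7 of the 9 genes, 6 of them lower and 1 higher. Of all tested genes 39.9% had groups without overlap, 12.8% lower and 27.1% higher.

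**Figure D1:**
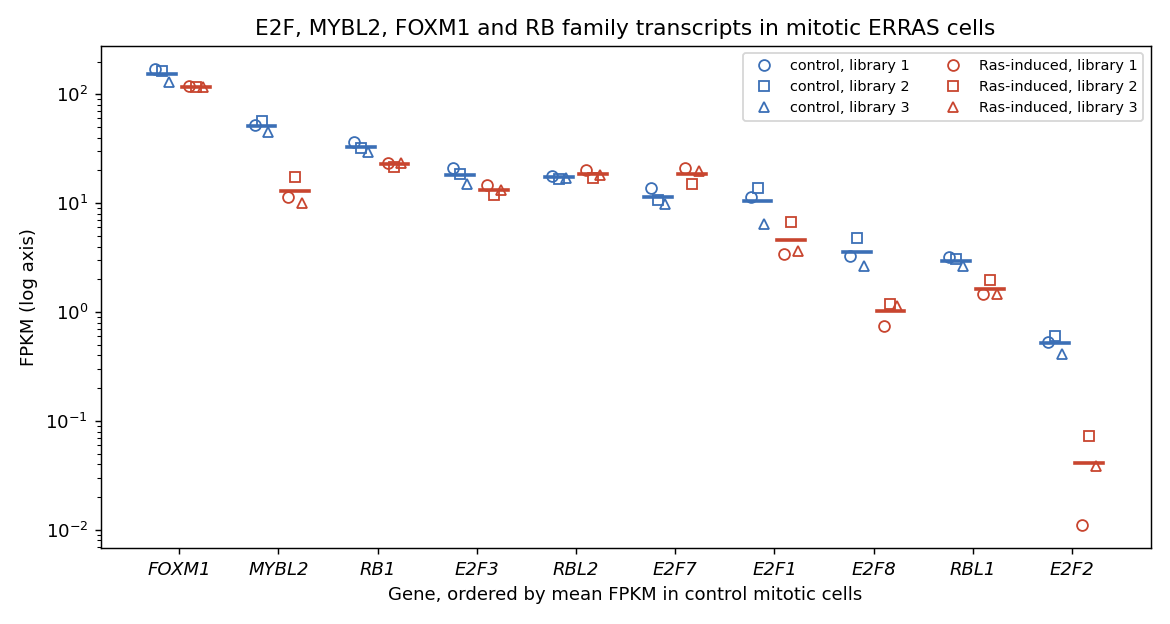
FPKM (log axis) of each of the 10 regulators in the 3 control and the 3 Ras-induced mitotic libraries. Points are single libraries, with a symbol for each library number, and lines are group means; the levels run from FOXM1 at over 100 FPKM to E2F2 under 1 FPKM, and the groups overlap only in E2F1 and RBL2.

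The count depended on which libraries were included. Without control library 1 or without Ras-induced library 1 or 3 a single regulator, MYBL2, stayed under the threshold (1 altered), and without control library 2 there were 2, MYBL2 and E2F8. The share of altered genes among all tested genes dropped as well, from 16.7% to 6.99%, 7.45%, 6.15% and 6.26% in these 4 fits. Without control library 3, 7 regulators were altered, all of them lower, against 13.4% of all tested genes altered and 5.07% lower. Without Ras-induced library 2 there were 4, against 10.3%. After quantile normalization 6 regulators were lower and 0 higher by limma (1 higher at an unadjusted p under 0.05, E2F7), where 15.4% of all tested genes were altered, 7.93% lower and 7.46% higher. Upper-quartile scaling gave the same counts, where 14.5% were altered, 7.87% lower and 6.58% higher. With a pseudocount of 0.1 there were 5 altered regulators (17.5% of all tested genes), with a replicate block 5 (16.5%), without a mean-variance trend 4 (14.4%), without a filter on low values 4 of 10 (5.17%) and at a mean of 5 FPKM or more 3 of 7 (21.4%).

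The levels differed widely between the regulators. In control mitotic cells FOXM1 was the most abundant, followed by MYBL2, RB1, E2F3, RBL2, E2F7, E2F1, E2F8, RBL1 and E2F2. FPKM is per transcript length, so these levels can be compared between genes. Neighbors such as E2F3 (18.1 ± 3.06 FPKM) and RBL2 (17.3 ± 0.561 FPKM), or E2F7 (11.5 ± 2.04 FPKM) and E2F1 (10.5 ± 3.70 FPKM), were no further apart than their spread (SD, n = 3). In Ras-induced mitotic cells the order below FOXM1 was RB1, E2F7, RBL2, E2F3 and MYBL2. There, too, E2F7 (18.5 ± 3.07 FPKM), RBL2 (18.5 ± 1.68 FPKM), E2F3 (13.3 ± 1.37 FPKM) and MYBL2 (12.95 ± 3.93 FPKM) formed pairs whose levels lay within their spread.

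Among the activators, E2F1 (ENSG00000101412, chromosome 20 of GRCh37 from 32263283 to 32274191) drives entry into S phase. Its level was 11.4, 13.7 and 6.47 FPKM in control libraries 1 to 3 and 3.40, 6.76 and 3.62 FPKM in Ras-induced libraries 1 to 3. The groups overlapped, because Ras-induced library 2 lay above control library 3. The log2 fold change was -1.04 (95% confidence interval -1.79 to -0.28) with an adjusted p of 0.0694 (limma), so the difference did not pass the test. Without control library 3 it was -1.32 with an adjusted p of 0.0492. With a replicate block by library number the adjusted p was 0.0282, but whether these numbers pair the libraries is not known.

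E2F2 (chromosome 1 of GRCh37 from 23832930 to 23857725), a second activator, was the least abundant of the 10 genes. Its level was 0.535, 0.601 and 0.414 FPKM in the controls and 0.0110, 0.0730 and 0.0383 FPKM after induction. All control libraries were above all Ras-induced libraries, and the ratio of the means was 12.7. Since the Ras-induced values are close to 0 this ratio is imprecise, and without Ras-induced library 2 it was 20.96. The gene did not reach the limit for the test. In a fit of the 29362 genes above 0 in any library the log2 difference came to -0.54 with a standard error of 0.06 (adjusted p = 0.0161, limma). That scale adds 1 to every value and so compresses the change of a gene this low.

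E2F3 (chromosome 6 of GRCh37 from 20402110 to 20493945), the third activator, was at 20.9, 18.5 and 14.9 FPKM in the controls and 14.7, 12.0 and 13.2 FPKM after induction. The groups did not overlap, but control library 3 and Ras-induced library 1 differed little. Its log2 fold change of -0.41 (95% confidence interval -0.75 to -0.07) did not pass the test (adjusted p = 0.0986, limma). It did so after quantile normalization (-0.51, adjusted p = 0.0417), after upper-quartile scaling (-0.51, adjusted p = 0.0482) and without control library 3 (-0.53, adjusted p = 0.0496).

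The atypical repressors E2F7 and E2F8 went in opposite directions. E2F7 (ENSG00000165891, chromosome 12 of GRCh37 from 77415028 to 77459349) was at 13.8, 10.7 and 9.87 FPKM in the controls and 20.9, 15.05 and 19.65 FPKM after induction. Every Ras-induced library was above every control library, by a small margin for Ras-induced library 2. It rose by 0.65 on the log2 scale, with a standard error of 0.16 (adjusted p = 0.0429, limma). The call was lost after quantile normalization (0.55, adjusted p = 0.0568), after upper-quartile scaling (0.54, adjusted p = 0.0691), without a mean-variance trend (adjusted p = 0.0566), without the filter on low values (adjusted p = 0.102), and when any library other than Ras-induced library 2 was left out (adjusted p between 0.0571 and 0.144). Its direction stayed the same in each of these.

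E2F8 (ENSG00000129173, chromosome 11 of GRCh37 from 19245610 to 19263167) was at 3.26, 4.75 and 2.67 FPKM in the controls and 0.744, 1.18 and 1.14 FPKM after induction. The lowest control was above the highest Ras-induced library. On the log2 scale the change was -1.16 with a standard error of 0.22 (adjusted p = 0.0167, limma), and the control mean was 3.49 times the Ras-induced mean. With a pseudocount of 0.1 in place of 1 the change was -1.69. Leaving out control library 1, Ras-induced library 1 or Ras-induced library 3 gave adjusted p-values of 0.0554, 0.059 and 0.0566.

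Set against each other inside each library, E2F7 exceeded E2F8 by 1.46 ± 0.392 (SD, n = 3) on the log2(FPKM + 1) scale in control and by 3.27 ± 0.384 (SD, n = 3) in Ras-induced mitotic cells. The difference of 1.80 had an exact permutation p of 0.1 (two-sided), the smallest that 3 libraries against 3 can give. The values were 1.79, 1.03 and 1.57 in the controls and 3.65, 2.88 and 3.27 after induction, with no overlap. With a pseudocount of 0.1 the difference between the groups was 2.38.

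MYBL2 (ENSG00000101057, chromosome 20 of GRCh37 from 42295659 to 42345135) had the largest change of the 9 tested regulators. It was at 51.7, 57.1 and 44.6 FPKM in the controls and 11.4, 17.4 and 10.1 FPKM after induction, a ratio of control to Ras-induced means of 3.95. The lowest control was far above the highest Ras-induced library. The log2 fold change was -1.93 (95% confidence interval -2.41 to -1.45, adjusted p = 0.00338, limma), and it ranged from -2.15 to -1.78 over the 13 alternatives with adjusted p-values from 0.00154 to 0.0291. Over the 6 libraries, the genes outside the lists whose log2(FPKM + 1) followed that of MYBL2 most closely were PCSK7, AC119673.1 and TAGLN, with Pearson correlations of 0.9989, 0.9985 and 0.9977. With 6 libraries in 2 groups many genes come near such values, and they are given as a description only.

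FOXM1 (ENSG00000111206, chromosome 12 of GRCh37 from 2966846 to 2986340), the forkhead factor that drives mitotic genes, was at 171.6, 163.3 and 128.5 FPKM in the controls and 119.9, 116.5 and 115.5 FPKM after induction. The groups did not overlap, and the Ras-induced libraries lay close together (117.3 ± 2.30 FPKM, SD, n = 3) while the controls spread more (154.4 ± 22.9 FPKM, SD, n = 3). Its log2 fold change of -0.38 (95% confidence interval -0.66 to -0.10) did not pass the test in the deposited values (adjusted p = 0.0694, limma). It passed after quantile normalization (-0.44, adjusted p = 0.041), after upper-quartile scaling (-0.49, adjusted p = 0.0249) and without control library 3 (-0.51, adjusted p = 0.0132). FOXM1 shares 782 bases of exon with ITFG2 on the opposite strand, and the library kit does not mark strand, so reads from there cannot be told apart.

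MYBL2 was lower relative to FOXM1 in Ras-induced cells. The difference MYBL2 minus FOXM1 on the log2(FPKM + 1) scale was -1.71, -1.50 and -1.505 in the control libraries and -3.29, -2.67 and -3.40 in the Ras-induced libraries. The means differed by -1.55 (exact permutation p = 0.1, two-sided, the smallest possible).

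**Figure D2:**
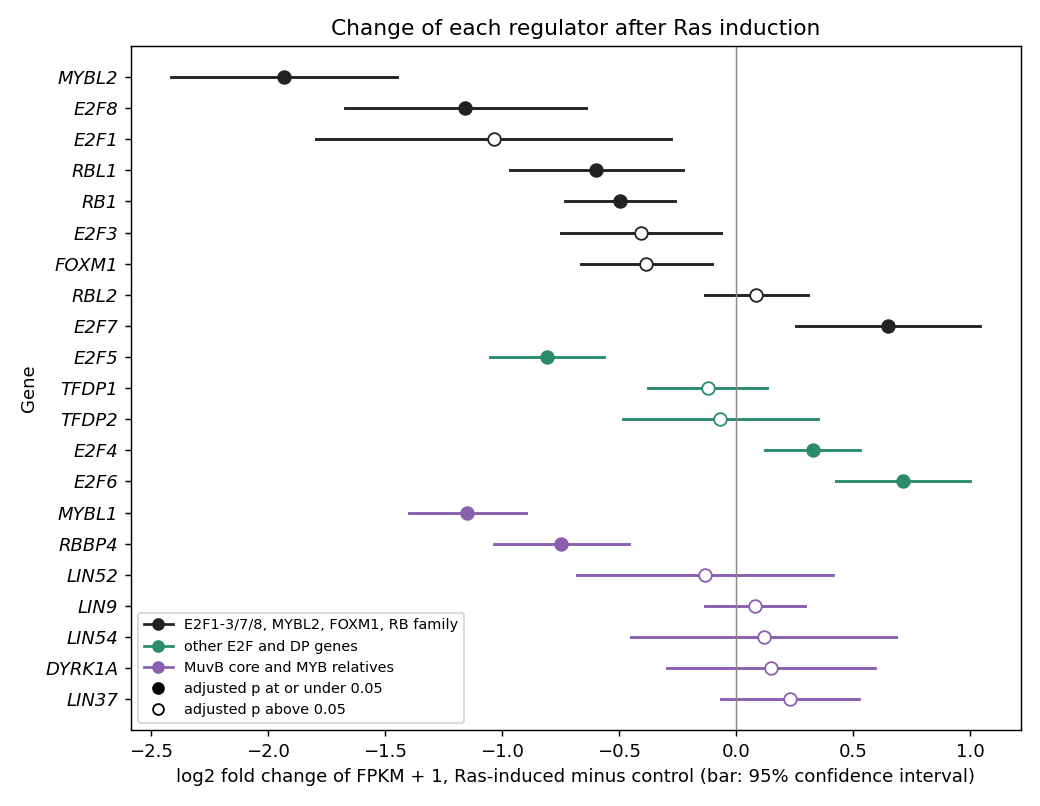
Log2 fold change of FPKM + 1 (Ras-induced minus control, horizontal axis) with its 95% confidence interval for the 9 tested regulators, the other E2F and DP genes, and the MuvB core genes with the MYB relatives (vertical axis). Filled points passed the limma test; MYBL2 at -1.93 and E2F7 at 0.65 are the ends of the range for the regulators.

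The 3 pocket protein genes differed from one another. RB1 (ENSG00000139687, chromosome 13 of GRCh37 from 48877880 to 49173572), the retinoblastoma tumor suppressor, was at 36.4, 32.1 and 29.6 FPKM in the controls and 23.2, 21.6 and 23.6 FPKM after induction. The groups did not overlap. RB1 changed by -0.50 on the log2 scale, with a standard error of 0.10 (adjusted p = 0.0201, limma), and after quantile normalization it was -0.61 (adjusted p = 0.00792). Leaving out control library 1 or 2 gave adjusted p-values of 0.0571 and 0.0727, and leaving out Ras-induced library 1, 2 or 3 gave 0.0654, 0.0612 and 0.066.

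RBL1 (ENSG00000080839, chromosome 20 of GRCh37 from 35624752 to 35724400), itself a known E2F target, was at 3.18, 3.09 and 2.62 FPKM in the controls and 1.45, 1.96 and 1.47 FPKM after induction. The lowest control was above the highest Ras-induced library. RBL1 changed by -0.60 on the log2 scale, with a standard error of 0.16 (adjusted p = 0.0457, limma). With a pseudocount of 0.1 the change was -0.84, since adding 1 compresses changes at such low levels. The call was lost without the filter on low values (adjusted p = 0.106) and with a replicate block (0.0682). It was also lost without control library 1 (0.104), control library 2 (0.102), Ras-induced library 1 (0.0921) or Ras-induced library 3 (0.111). The second entry with this symbol, ENSG00000269846, an antisense gene that shares 213 bases of exon with RBL1 in the annotation, was at most 0.203 FPKM.

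RBL2 (ENSG00000103479, chromosome 16 of GRCh37 from 53467889 to 53525560), the pocket protein of quiescent cells, was at 17.9, 16.8 and 17.2 FPKM in the controls and 20.2, 16.9 and 18.3 FPKM after induction. The groups overlapped. The log2 fold change was 0.09 with a 95% confidence interval from -0.13 to 0.31 (adjusted p = 0.546, limma), and its sign turned after quantile normalization (-0.01) and upper-quartile scaling (-0.02). RBL2 shares 721 bases of exon with ENSG00000279344 and 609 with AKTIP, both on the opposite strand, whose reads cannot be told apart there.

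Inside each library, RBL1 minus RBL2 on the log2(FPKM + 1) scale was -2.18, -2.12 and -2.33 in control and -3.11, -2.60 and -2.97 in Ras-induced mitotic cells. The difference of -0.68 came with no overlap between the groups (exact permutation p = 0.1, two-sided, the smallest possible), and with a pseudocount of 0.1 it was -0.93. E2F1 minus RB1 was -1.60 ± 0.433 (SD, n = 3) in control and -2.14 ± 0.518 (SD, n = 3) in Ras-induced cells. That difference of -0.54 was little larger than the SDs (exact permutation p = 0.3, two-sided), and the groups overlapped. It was -0.32 without control library 2 and -0.84 without Ras-induced library 2. These 4 pairs were the only ones compared, and adjusted over the 4 the exact p-values cannot fall under 0.1.

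**Figure D3:**
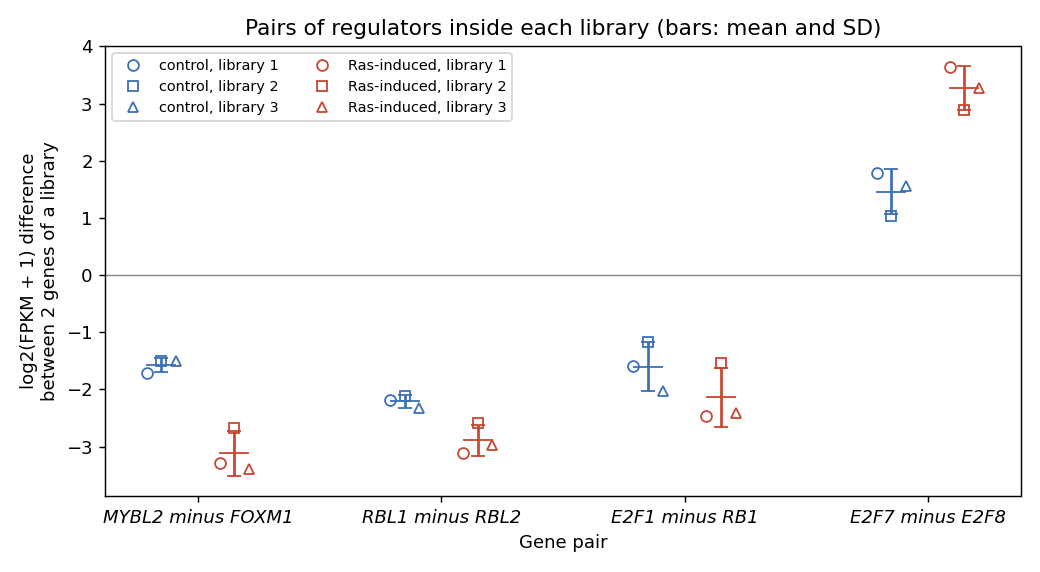
Difference of log2(FPKM + 1) between the genes of each pair inside a library (vertical axis) for the 4 pairs of regulators (horizontal axis), with the mean and SD of the 3 libraries of each group. The Ras-induced libraries lie outside the range of the controls for MYBL2 minus FOXM1, RBL1 minus RBL2 and E2F7 minus E2F8, and inside it in part for E2F1 minus RB1.

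The regulators also differed between libraries of a group. Control library 3 was the lowest control for 9 of the 10 genes, RBL2 being the exception. Ras-induced library 2 was the highest of its group for E2F1, E2F2, E2F8, MYBL2 and RBL1 and the lowest for E2F3, E2F7, RB1 and RBL2. It deviated from the group mean by 0.52 for E2F1 and 0.44 for MYBL2, but by -0.27 for E2F7, on the log2(FPKM + 1) scale. Control library 3 had the greatest relative depth (1.17) and Ras-induced library 2 the least (0.849), and the part of depth in these deviations was not tested. In the same Ras-induced library the median deviation of the G1/S target genes described next was 0.15, and in Ras-induced library 3 it was -0.13, whereas the medians of the G2/M target genes stayed between -0.03 and 0.02 in all 6 libraries.

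The other E2F and DP genes, which form the dimers and complexes in which the regulators act, moved in both directions. Of 6 listed genes 5 were tested and 3 were altered, 2 higher and 1 lower, where 16.7% of all tested genes were altered, 11% higher and 5.67% lower. E2F6, a repressor that works without pocket proteins, rose from 8.82 to 15.2 FPKM on average (log2 fold change 0.71, standard error 0.12, adjusted p = 0.0125, limma). E2F4, the main E2F of pocket-protein repression, rose from 48.5 to 60.9 FPKM (log2 fold change 0.33, adjusted p = 0.0461). This call was lost after quantile normalization (adjusted p = 0.104), upper-quartile scaling (0.12) and without 5 of the 6 libraries, all but control library 1 (0.0661 to 0.132). It was also lost without the filter (0.0727) or a trend (0.0719) and with a replicate block (0.0537). E2F5, its close relative, fell from 8.96 to 4.69 FPKM (log2 fold change -0.81, standard error 0.10, adjusted p = 0.00552), and remained altered under all 13 alternatives. E2F6 kept its direction, with adjusted p-values of 0.0516, 0.0585, 0.0563 and 0.064 without control library 1 or 2 or Ras-induced library 1 or 3. The dimer partners TFDP1 (98.2 and 90.6 FPKM) and TFDP2 (15.3 and 14.7 FPKM) did not pass the test, and TFDP3 was at or near 0.

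Of 8 MuvB core genes and MYB relatives 7 were tested, and MYBL1 and RBBP4 were altered, both lower, where 5.67% of all tested genes were lower. MYBL1 (A-MYB), the closest relative of MYBL2, was at 36.0, 39.3 and 35.0 FPKM in the controls and 18.0, 16.0 and 14.3 FPKM after induction. The fall was -1.15 on the log2 scale, with a standard error of 0.11 (adjusted p = 0.00252, limma), without overlap between the groups. RBBP4, a histone-binding protein that is also part of other chromatin complexes, went from 50.9 to 30.2 FPKM (log2 fold change -0.75, adjusted p = 0.011), and to adjusted p-values of 0.055 and 0.0544 without control library 2 or Ras-induced library 3. The subunits particular to MuvB, LIN9, LIN37, LIN52 and LIN54, did not pass the test, with log2 fold changes from -0.13 to 0.23.

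Upstream, 15 kinases, cyclins and CDK inhibitors that set RB phosphorylation were listed, and of the 13 tested 3 rose and 3 fell, where 11% of all tested genes rose and 5.67% fell. The INK4 inhibitor CDKN2B (p15) rose from 2.31 to 18.7 FPKM (log2 fold change 2.58, adjusted p = 0.00212, limma), and CDKN2A, the gene of p16 and ARF, from 8.95 to 16.4 FPKM (0.80, adjusted p = 0.00368). CDKN1A (p21) was at 4.58, 3.91 and 5.54 FPKM in the controls and 31.0, 8.24 and 14.6 FPKM after induction, with a log2 fold change of 1.56 (adjusted p = 0.0496). The CDKN1A call was lost under 9 of 13 alternatives, among them both scalings (0.0576 and 0.0671) and the omission of any library but Ras-induced library 2 (0.076 to 0.162). The 3 genes that fell were CDK6, a kinase of RB, with -1.10 (adjusted p = 0.00788), the INK4 inhibitor CDKN2C (p18) with -0.79 (adjusted p = 0.0127), and the inhibitor CDKN1B (p27) with -0.68 (adjusted p = 0.00545). CDKN2C did not pass without control library 1 or 2 or Ras-induced library 1 (adjusted p = 0.0575, 0.0585 and 0.0541). CCND1, the main D cyclin here, and CDK4 were near level, at 277 and 264.5 FPKM and at 99.2 and 107 FPKM in control and Ras-induced cells.

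Among 11 genes of the corepressors that pocket proteins recruit, HDAC3 alone was altered in the deposited values, from 42.2 to 53.5 FPKM (log2 fold change 0.34, adjusted p = 0.0253, limma). That is 9.09% of the list, against 16.7% of all tested genes. HDAC3 did not pass after quantile normalization (adjusted p = 0.0539) or upper-quartile scaling (0.0669), nor without control library 1 or 2 or any 1 Ras-induced library (0.055 to 0.0819). The other 10 had log2 fold changes between -0.28 and 0.29.

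The genes that the regulators are known to drive were mostly lower. Of 39 G1/S target genes of E2F, all tested, 25 fell and 1 rose, where 5.67% of all tested genes fell and 11% rose. Their median log2 fold change was -0.57, against 0.10 for all tested genes, and 37 of the 39 had a negative value. TYMS, which makes thymidylate for DNA synthesis, fell from 88.4 to 27.6 FPKM (log2 fold change -1.67, standard error 0.16, adjusted p = 0.00279, limma). MCM3, a subunit of the replicative helicase, fell from 32.1 to 12.5 FPKM (log2 fold change -1.30, adjusted p = 0.00287). The single rise was that of FEN1, the flap endonuclease, from 37.9 to 46.6 FPKM (0.29, adjusted p = 0.033). FEN1 did not pass after quantile normalization (0.18, adjusted p = 0.111) or upper-quartile scaling (0.18, adjusted p = 0.118). Nor did it pass without a trend (0.0581), with a replicate block (0.0514) or without any library but control library 3 (0.0639 to 0.0803). The count of altered genes was 17, 10, 13 and 13 without control library 1, control library 2, Ras-induced library 1 and Ras-induced library 3, where 6.15% to 7.45% of all tested genes were altered.

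Of 36 G2/M target genes of MYBL2, FOXM1 and MuvB, all tested, 19 fell and 0 rose by limma, where 5.67% of all tested genes fell and 11% rose. At an unadjusted p under 0.05 the counts were 23 and 0, where 1501 of all 13993 tested genes were lower and 3206 higher at that threshold. Their median log2 fold change was -0.31, and 34 of the 36 had a negative value. KIF20A, a kinesin of cytokinesis, fell from 182 to 104 FPKM (log2 fold change -0.81, standard error 0.08, adjusted p = 0.00279, limma). PRC1, which bundles the microtubules of the central spindle, fell from 304 to 191 FPKM (log2 fold change -0.66, adjusted p = 0.00336). No gene of this list had a fall as large as that of MYBL2. The count was 10 without a mean-variance trend and 8 without the filter on low values, where 14.4% and 5.17% of all tested genes were altered. It was 4, 4, 6, 9 and 4 without control library 1, control library 2, and Ras-induced libraries 1, 2 and 3, where 6.15% to 10.3% of all tested genes were altered.

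The promoter letters of these lists differed. Of the 32 G1/S genes with a window 17 (53.1%) held the E2F element and 3 (9.38%) the CHR element, whereas of the 30 G2/M genes with a window 3 (10%) held the E2F element and 22 (73.3%) the CHR element. Among the G1/S genes, 14 of the 17 with the E2F element fell and 7 of the 15 without it did, with median log2 fold changes of -0.71 and -0.35. Among all tested genes with a window, 10.7% of the 438 with the E2F element and 6.06% of the 7146 without it fell, and 7.08% and 12.7% rose. For the CHR element 11.2% of 877 genes with it and 5.7% of 6707 without it fell, and 9.24% and 12.8% rose. Among the G2/M genes, 14 of the 22 with the CHR element and 3 of the 8 without it fell, whereas 0 of the 3 with the E2F element and 17 of the 27 without it did. These shares are descriptions, and no test was attached to them.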

How the data were processed

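Poly(A) RNA was sequenced from 6 samples of mitotic ERRAS cells, 3 control and 3 Ras-induced. According to the paper's methods and the submitters' processing notes, the authors trimmed reads with Trim Galore 0.3.0, aligned them to hg19 with TopHat2 and Ensembl build 73 junctions, and calculated FPKM per gene with Cufflinks. The deposited FPKM table names group and number of each library but not the sample, and no scaling between libraries is stated. A second header line, 18 unnamed columns and 120 genes with more than 6 values were left out, none of them a listed gene. A deposited Cuffdiff comparison (group means, fold changes, p- and q-values of the authors) was not used.

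Genes averaging 1 FPKM or more were fitted by limma (version 3.58.1, R 4.3.3) on the log2(FPKM + 1) scale (mean-variance trend, two-sided, Benjamini-Hochberg over 13993 genes). Pairs of genes were compared by exact permutation. The study describes independent repeats of the experiment, but the labels do not tie samples to them, and p-values measure the spread between these samples. Positions are from GENCODE 44 on GRCh37, the build of hg19, and promoter sequences from RefSeq on GRCh38.p14, 1 window per gene at its outer start. The regulators and gene lists were chosen with earlier results of these data known. Named genes were all regulators, the 2 largest altered rises and falls of each list, list genes whose role is tied to a regulator, and the 3 genes most like the regulator that changed most. Alternatives were a pseudocount of 0.1, no filter, a mean of 5 FPKM or more, quantile and upper-quartile scaling, no trend, a replicate block and each library left out. Repeating them for the named genes of the other lists was chosen after seeing the data. Figures were drawn with Python 3.11.15 and matplotlib 3.10.9.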

Additional observations from a re-analysis of the deposited data

How the results depend on the processing

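MYBL2 kept its direction and its call under all 13 alternatives, as did E2F5, MYBL1, CDKN1B, THY1, CDKN2A, CDKN2B, TYMS, MCM3, KIF20A and PRC1. RBL2 was reversed by quantile normalization (-0.0102) and upper-quartile scaling (-0.0181), as was LIN9 (-0.0221 and -0.02205), and VIM by upper-quartile scaling (-0.0547). None of these 3 passed the test. The 4 within-library differences kept their direction in every alternative run. Depth was estimated here only relative to another library. E2F2 and, at a mean of at least 5 FPKM, E2F8 and RBL1 could not be fitted under the filter. The cause of the changes below was not tested.

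A mean of at least 5 FPKM left 3 altered regulators. Without the filter 1518 genes in all and 8 G2/M targets were altered, among 29362 genes tested. Without a trend 10 G2/M targets and 2012 genes in all (14.4%) were altered. Upper-quartile scaling left 0 altered corepressor genes by limma (1 higher and 2 lower at an unadjusted p under 0.05), and quantile normalization left 1, which was lower. Among all tested genes 1543 were higher and 793 lower as deposited, 1044 and 1109 after quantile normalization, and 921 and 1101 after upper-quartile scaling. Among the regulators the split was 1 higher and 4 lower, and after either scaling 0 and 6.

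With each library left out in turn, the altered genes ranged from 860 to 1872 in all, from 1 to 7 among the regulators, from 1 to 2 among E2F and DP genes, from 1 to 2 among MuvB and MYB genes, from 4 to 6 among RB kinases and inhibitors, from 0 to 1 among corepressors, from 10 to 22 among G1/S targets and from 4 to 15 among G2/M targets. Genes that did not pass the test and changed sign in these fits were TFDP2 (log2 fold change from -0.226 to 0.0489), LIN52 (-0.354 to 0.0481), LIN54 (-0.114 to 0.243), PDGFRB (-0.187 to 0.218) and VIM (-0.0439 to 0.163).

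Whether the library numbers in the column names pair the libraries is not known. The deviations of same-numbered libraries correlated only weakly across genes, at -0.00266, 0.0434 and 0.0481. Deviations from means of 3 libraries cannot settle the pairing. Control libraries 2 and 3 correlated best with the Ras-induced library of their own number, and control library 1 with Ras-induced library 2 (0.0311). With the replicate block 2310 genes and 5 regulators were altered. E2F1 (adjusted p = 0.0282) and COL1A1 (0.0456) then passed the test, and RBL1 (0.0682), E2F4 (0.0537), FEN1 (0.0514) and HRAS (0.0526) no longer did. The ratio of the means of E2F2 with each library left out, an alternative chosen after seeing the data, ranged from 9.28 to 20.96.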
